A study of Homo sapiens with 6 samples.

Results

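The USP family is the largest class of human deubiquitinases, the proteases that remove ubiquitin from proteins. Its members were taken here as every probe set whose only gene symbol in the platform annotation was USP followed by a number, with or without 1 further letter. Of the matching family symbols, 3 were left out by that rule and are not analysed here. This gave 124 of 54613 probe sets and 43 of 19775 genes, and each gene was read at its brightest probe set over all 6 arrays. Family members without a probe set that carries their symbol alone, such as USP10, USP15 and USP32, are absent. The rule used symbols and mean signal, not the change under TET siRNA, but was set with earlier results of these data known.

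The arrays held total RNA of Flp-In T-REx 293 cells, a HEK293 derivative, from 3 clones that all carried a stable inducible GFP transgene kept off. Each clone was given siRNAs against TET1, TET2 and TET3 together on one array and a non-targeting siRNA pool on the other, and RNA was taken at 96 h. The groups are therefore 3 TET siRNA arrays and 3 control siRNA arrays matched by clone, and p-values measure the spread between 3 clones of 1 cell line.

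Ubiquitin is joined to lysines of target proteins as single units or as chains, and the kind of chain decides whether the protein goes to the proteasome, changes its partners or is moved within the cell. USP enzymes cut these links through a catalytic cysteine held in a domain shaped like a hand, and differ in the domains and partners that bring them to their substrates. TET1, TET2 and TET3 oxidise 5-methylcytosine, which in most human cells lies in CpG dinucleotides.

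The knockdown was visible in the targeted transcripts. At the brightest probe sets 17.9% of the control signal of TET1, 46.8% of TET2 and 42.9% of TET3 was left, each lower in 3 of 3 clones. The ratio of 3' to 5' control signal was 1.05 to 1.07 for GAPDH under TET siRNA and 1.04 to 1.08 in the control, and for ACTB 1.89 to 2.15 and 2.01 to 2.07. Of 7 markers fixed for HEK293 cells 6 were bright enough to test (a mean log2 signal over all arrays in the upper 50% of probe sets), led by the neurofilament NEFL and the keratin KRT18, while none of 3 measured markers of leukocytes or of 3 of hepatocytes was. The fibroblast list had 2 of 4 above that limit (COL1A1 and LUM) and the endothelial list 1 of 3 (PECAM1). Since RNA came from whole cultures, fewer cells of a kind and less RNA per cell cannot be told apart.

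Because the TET enzymes act on CpG dinucleotides, the CpG content upstream of the USP genes is given first, from the RefSeq promoter windows of GRCh38.p14, cut to the 250 bases before each gene's start. Windows were matched by symbol for 33 of the 43 USP genes, 31 of them bright enough to test. The 41 windows of those 31 genes held a median of 25 CpG (both strands read alike), with quartiles of 16 and 31. The 14818 windows of all tested genes held a median of 20, with quartiles of 12 and 28, and 98.7% of them had at least 1 CpG. The windows printed belong to USP53, which had a probe set past the threshold in a fit, and to USP11, USP35 and USP19, the 3 genes of smallest p among those with a window. CpG dinucleotides are in capitals. The windows are shown as sequence context, since methylation was not measured here. USP53 lies on the plus strand at chr4:119212463-119212712 and had 25 CpG, a number reached by 34.9% of the windows of all tested genes. USP11 lies on the plus strand at chrX:47232759-47233008 with 13 CpG (72.7%). USP19 lies on the minus strand at chr3:49120824-49121073 with 30 CpG (20.1%). USP35 lies on the plus strand at chr11:78188669-78188918 with 27 CpG (28.6%).
USP53: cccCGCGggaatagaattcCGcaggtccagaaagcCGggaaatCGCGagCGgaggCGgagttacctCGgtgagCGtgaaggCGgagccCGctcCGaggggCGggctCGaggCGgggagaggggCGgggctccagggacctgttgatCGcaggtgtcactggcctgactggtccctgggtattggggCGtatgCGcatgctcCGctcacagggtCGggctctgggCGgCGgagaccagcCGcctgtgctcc
USP11: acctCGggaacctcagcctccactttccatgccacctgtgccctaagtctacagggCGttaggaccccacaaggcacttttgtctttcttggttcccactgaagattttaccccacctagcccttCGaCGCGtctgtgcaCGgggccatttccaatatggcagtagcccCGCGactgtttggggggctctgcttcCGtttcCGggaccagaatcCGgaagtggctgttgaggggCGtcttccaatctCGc
USP19: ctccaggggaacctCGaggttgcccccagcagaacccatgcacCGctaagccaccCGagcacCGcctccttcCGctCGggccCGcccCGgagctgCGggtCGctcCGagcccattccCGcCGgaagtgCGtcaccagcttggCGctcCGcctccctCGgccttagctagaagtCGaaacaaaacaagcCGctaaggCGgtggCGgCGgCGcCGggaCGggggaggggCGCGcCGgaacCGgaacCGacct
USP35: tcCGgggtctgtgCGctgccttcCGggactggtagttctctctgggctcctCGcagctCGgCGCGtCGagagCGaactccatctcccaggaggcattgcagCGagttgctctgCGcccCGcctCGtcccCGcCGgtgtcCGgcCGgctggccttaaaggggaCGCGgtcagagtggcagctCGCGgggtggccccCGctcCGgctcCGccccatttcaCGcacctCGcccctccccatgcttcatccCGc

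Most USP transcripts differed little between TET siRNA and control siRNA. Of the 43 genes, 40 were bright enough to test, and USP5, USP26 and USP29 were not, with geometric mean signals of 78.6, 9.71 and 27.3 against a limit of 117. Among the 40, 23 had a positive and 17 a negative log2 difference (TET siRNA minus control siRNA). The median was 0.0089, against 0.0070 over all 12318 genes tested. The median size of a difference, whatever its sign, was 0.086 for USP genes and 0.11 for all genes, and the median SD of log2 signal over the 3 control arrays was 0.12 and 0.16.

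The groups were compared in limma, a linear model per probe set with variances moderated across all of them and p-values adjusted over all tested probe sets (Benjamini-Hochberg). In limma without a clone term, 0 of the 40 USP genes passed an adjusted p of 0.05, where 0.0162% of all genes passed. At an unadjusted p under 0.05 there were 2, USP37 and USP11, both higher, which is 5% of the USP genes against 6.96% of all genes. With the clone as a replicate block, 1 of 40 passed, USP37, or 2.5% against 1.32% of all genes. At an unadjusted p under 0.05 this fit had 5, all higher (USP37, USP11, USP44, USP19 and USP45), or 12.5% against 16.1%. The shares of USP genes lay near those of all genes throughout. Of the siRNA targets, TET1 passed in both fits. TET2 and TET3 did not pass without a clone term (limma adjusted p 0.198 and 0.0678) and passed with the replicate block (0.0047 and 0.0021). The fit without a clone term thus also missed 2 targeted transcripts.

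The size of change that the arrays leave possible is given by the 95% intervals of the fit without the clone. For 32 of the 40 USP genes (80%) the whole interval lay within 1.5-fold of no change in either direction, against 65.7% of all genes. The other 8 were USP2, USP20, USP27X, USP28, USP35, USP37, USP44 and USP51. For these a change of more than 1.5-fold in at least 1 direction is inside the interval. With the replicate block the interval lay within 1.5-fold for 34 of the 40 USP genes and for 9390 of all 12318 genes.

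**Figure D1:**
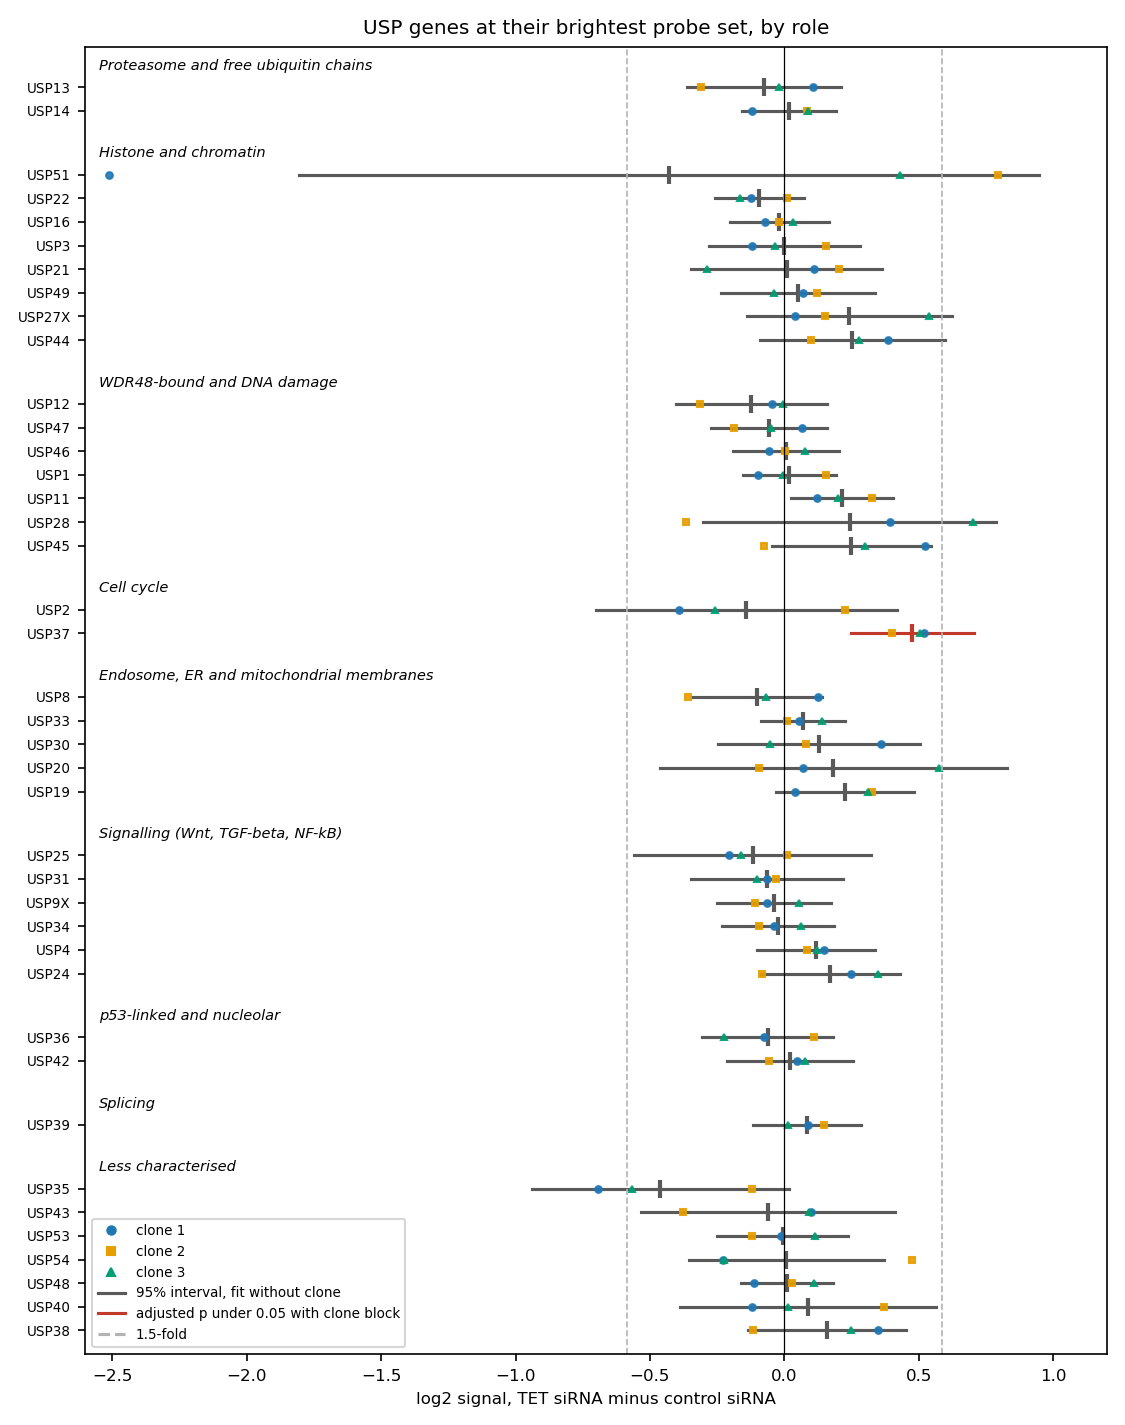
Log2 difference in signal (x axis) of the 40 tested USP genes at their brightest probe set, grouped by role; vertical ticks are means over 3 clones, lines are 95% intervals of the fit without the clone, and circles, squares and triangles are clones 1, 2 and 3. USP37, in red, is the gene that passed with the replicate block, and USP51 has the widest interval.

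**Figure D2:**
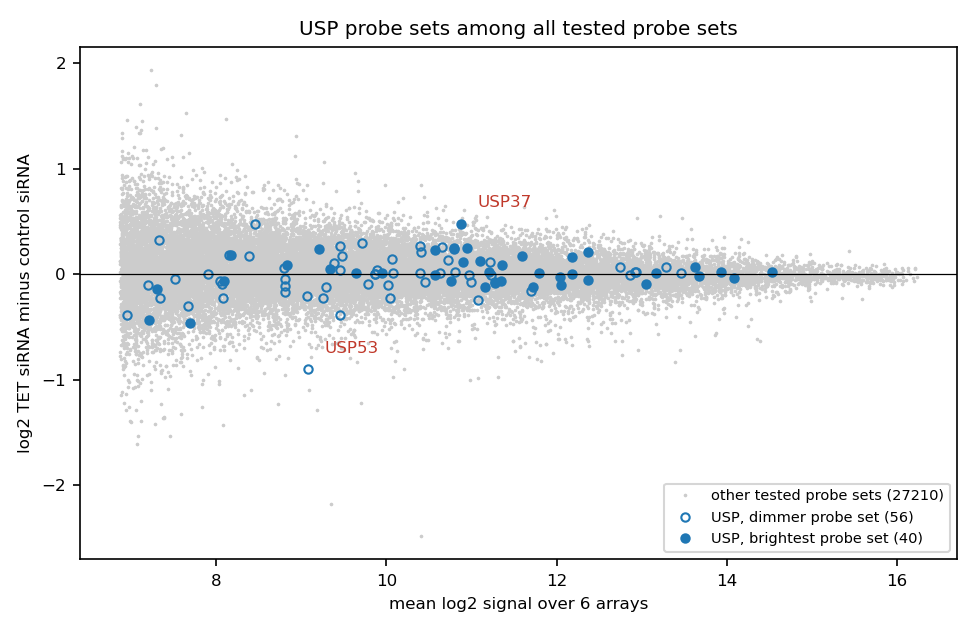
Log2 difference (y axis) against mean log2 signal over 6 arrays (x axis) for all tested probe sets in grey and the 96 tested USP probe sets in blue, filled for the brightest of each gene. The named points are the 2 USP probe sets past the threshold with the replicate block, the brightest of USP37 and the dimmest tested one of USP53.

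USP37 was the USP gene with the clearest increase under TET siRNA. It encodes a deubiquitinase of the cell cycle, known for removing ubiquitin from cyclin A ahead of S phase. At its brightest probe set (Entrez gene 57695) the signal was 2344, 2061 and 2239 under TET siRNA in clones 1, 2 and 3, and 1634, 1561 and 1578 in the control. The groups did not overlap, and all 3 clones moved up by a similar amount. The means were 2215 ± 143 and 1591 ± 38.1 (SD, n = 3 each), a 1.39-fold higher level with a 95% interval of 1.19 to 1.63. The log2 difference was 0.48 (SE 0.10), and the limma adjusted p was 0.0274 with the replicate block but 0.291 if the clone was not modelled.

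The other 2 tested probe sets of USP37 pointed the same way with smaller values. The second gave 1563, 1360 and 1473 under TET siRNA against 1354, 1170 and 1274 in the control, a log2 difference of 0.21. The dimmest gave 887, 654 and 779 against 680, 622 and 616, a log2 difference of 0.27. Both were higher in 3 of 3 clones, and neither passed (limma adjusted p 0.339 and 0.373 with the replicate block). The brightest carries the suffix of probe sets that can match several transcripts, and the mean of all 3 probe sets gave 0.32 for the gene.

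The USP37 call depended on the arrays and on the model. With the replicate block its limma adjusted p was 0.141 without clone 1, 0.0096 without clone 2, 0.241 without clone 3, 0.320 without the trend and robust steps and 0.119 with no filter on dim probe sets.

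**Figure D3:**
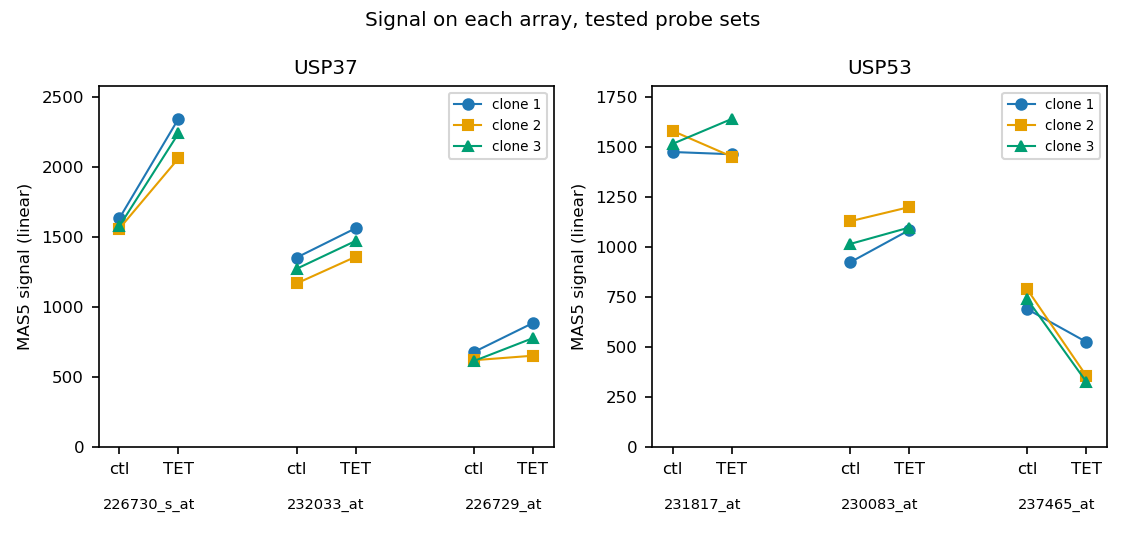
MAS5 signal on a linear axis from 0 for the 3 tested probe sets of USP37 (left) and of USP53 (right), with a line joining the control (ctl) and TET siRNA (TET) arrays of each clone. Every clone has a higher TET siRNA signal at all 3 USP37 probe sets, while of the USP53 probe sets the dimmest has a lower one in each clone and the brightest has log2 differences of -0.01, -0.12 and 0.11.

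USP53 had 1 probe set that was lower under TET siRNA and 2 that were not. USP53 is a protein of tight junctions whose loss causes hearing loss in mice. Its dimmest tested probe set (Entrez gene 54532) gave 526, 357 and 327 under TET siRNA in clones 1, 2 and 3 and 690, 789 and 739 in the control. All TET siRNA arrays lay below all control arrays, with the smallest gap in clone 1. The means were 404 ± 107 and 739 ± 49.4 (SD, n = 3 each), a log2 difference of -0.90 (SE 0.20). The limma adjusted p was 0.0370 with the replicate block and 0.320 in the model with no clone term.

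The brightest USP53 probe set gave 1463, 1451 and 1639 against 1474, 1579 and 1515, with overlapping groups and a log2 difference of -0.01 (95% interval -0.25 to 0.24). The middle one gave 1084, 1199 and 1097 against 923, 1128 and 1015, a log2 difference of 0.14. The probe sets of USP53 thus disagreed, and at gene level, by the brightest, no change was called. The dim probe set differed by -1.16 without clone 1 (limma adjusted p = 0.0245 without and 0.0287 with the replicate block), by -0.78 without clone 2 (0.0438 with the block) and by -0.77 without clone 3 (0.241 with the block). With the block it also missed the threshold without the trend and robust steps (0.320) and with no filter on dim probe sets (0.157).

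Across all tested USP probe sets, 0 of 96 passed in limma without the clone, where 0.0146% of all 27306 did. At an unadjusted p under 0.05 there were 5 (5.21%), against 1805 of all 27306. With the replicate block 2 of 96 passed (2.08%), the probe sets of USP37 and USP53 just described, against 1.03% of all. At an unadjusted p under 0.05 this fit had 11 (11.5%), against 3925 of all 27306. Of the 40 genes, 30 had 2 or more tested probe sets, and in 9 of these all probe sets had the same sign. The median distance between the highest and lowest difference of a gene was 0.24 on the log2 scale. It was over 0.4 in 5 genes: USP53, USP34, USP45, USP19 and USP36.

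**Figure D4:**
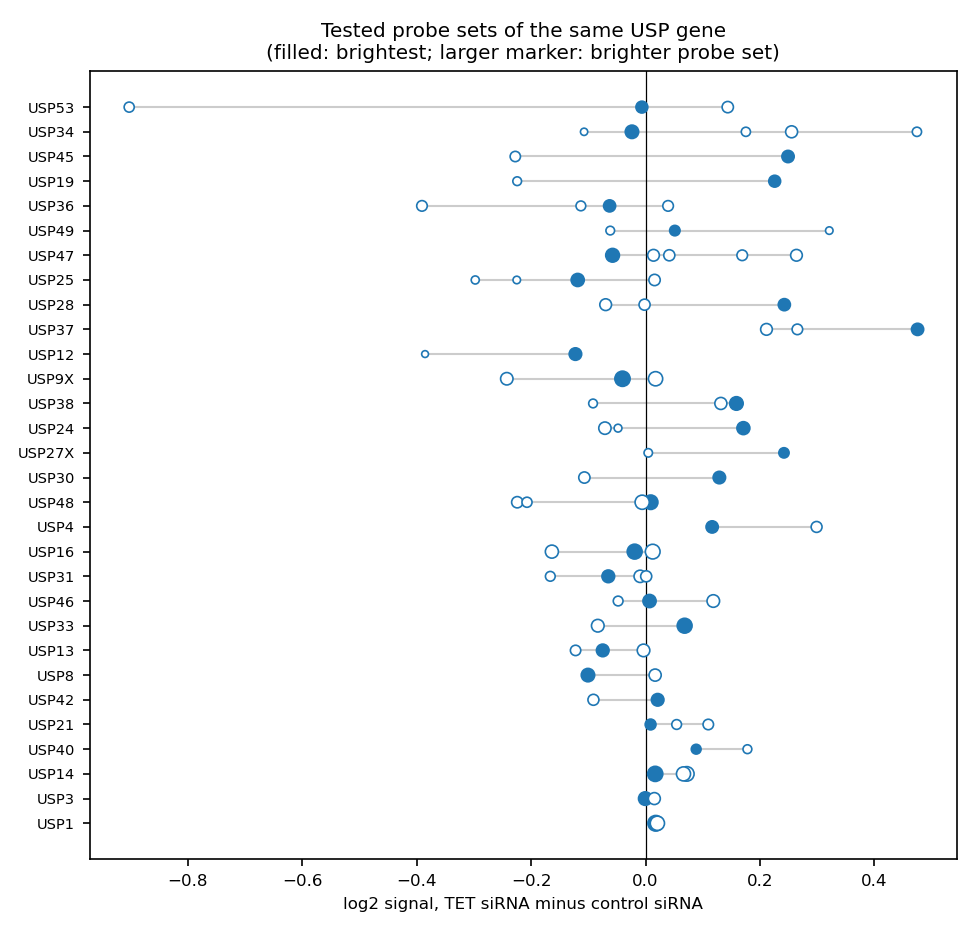
Log2 difference (x axis) at each tested probe set of the 30 USP genes with 2 or more, ordered by the distance between a gene's probe sets; filled markers are the brightest probe set and larger markers are brighter ones. USP53 and USP34 spread most, and the 3 USP37 probe sets all lie above 0.

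Of the enzymes tied to the proteasome and to free ubiquitin chains, 2 of 3 were tested and both intervals lay within 1.5-fold. USP14, which trims chains at the proteasome, was among the 3 brightest. Its signal was 15500, 15828 and 15692 under TET siRNA against 16831, 14943 and 14776, with overlapping groups and a log2 difference of 0.02 (95% interval -0.16 to 0.19). USP13, a relative of USP5, differed by -0.07.

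The histone and chromatin group had 8 tested genes, 4 positive and 4 negative, with a median of 0.0042 and none past the threshold in either fit. USP22, which removes ubiquitin from histones as part of the SAGA coactivator, gave 8280, 8403 and 8003 under TET siRNA against 9028, 8337 and 8970 (log2 -0.09, 95% interval -0.26 to 0.07). Its groups overlapped through clone 2. USP44, which acts on histone H2B and in the spindle checkpoint, gave 1739, 1898 and 2196 against 1332, 1774 and 1812. It was higher in 3 of 3 clones while its groups overlapped, at 0.25 on the log2 scale (limma adjusted p 0.821 without and 0.242 with the replicate block). USP27X and USP51, relatives of USP22 that can take its place on the same adaptors, differed by 0.24 and -0.43.

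The USP51 value rested on 1 array. Its signals were 42.7, 231 and 210 under TET siRNA against 244, 133 and 156, so that clone 1 was lower by 2.51 on the log2 scale while clones 2 and 3 were higher by 0.79 and 0.43. Without clone 1 the log2 difference was 0.61. The remaining chromatin genes USP3, USP16, USP21 and USP49 lay between -0.02 and 0.05 at their brightest probe sets. Over all their tested probe sets the values ran from -0.16 (USP16) to 0.32 (USP49).

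Among 7 genes bound by WDR48 or known from DNA damage, 5 were positive and 2 negative, with a median of 0.02. USP1, which acts on FANCD2 and PCNA together with the activator WDR48, was the brightest of the family. Its signal was 22189, 25521 and 24066 under TET siRNA against 23734, 22932 and 24130 (log2 0.02, 95% interval -0.16 to 0.19). USP12, another partner of WDR48, gave 2494, 2018 and 2107 against 2574, 2512 and 2116 (log2 -0.12), with its change almost wholly in clone 2. USP46, its close relative, differed by 0.0070.

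USP11, which works with BRCA2 in DNA repair, had 5343, 5954 and 5861 under TET siRNA and 4917, 4754 and 5105 in the control at its single probe set. The groups did not overlap and 3 of 3 clones were higher. The means were 5720 ± 329 and 4925 ± 176 (SD, n = 3 each), or 1.16-fold with a 95% interval of 1.02 to 1.32, and the limma adjusted p was 0.707 without and 0.195 with the replicate block. USP45, which acts with the repair nuclease ERCC1-XPF, gave 2432, 1963 and 2079 against 1690, 2071 and 1688 at its brighter probe set (log2 0.25) and -0.23 at its dimmer one. With the replicate block and without clone 2, USP45, USP28 and USP38 passed beside USP37, or 4 of 40, where 684 of all 27306 probe sets (2.50%) passed. For USP45 the log2 difference was then 0.41 (limma adjusted p 0.0398), but it was 0.11 without clone 1 (0.766) and the adjusted p over all arrays was 0.346, each with the block. USP47 and USP28 differed by -0.06 and 0.24 at their brightest probe sets, and USP28 had clone values of 0.39, -0.37 and 0.70. The dimmer tested probe sets of USP28 had -0.07 and -0.0017. Those of USP47 had 0.01, 0.26, 0.04 and 0.17. At the one with 0.26 the groups did not overlap (limma adjusted p 0.783 without and 0.248 with the replicate block).

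Of the cell cycle group, USP37 is given above and USP2 differed by -0.14 with a 95% interval of -0.70 to 0.42. The membrane group had 5 tested genes, 4 of them positive, and none past the threshold in either fit. USP19, an enzyme with an isoform anchored in the endoplasmic reticulum, gave 1585, 1624 and 1719 under TET siRNA against 1541, 1295 and 1387 at its brighter probe set. The groups did not overlap, with a log2 difference of 0.23 (limma adjusted p 0.788 without and 0.329 with the replicate block), but the dimmer probe set had -0.22. USP8, which acts on receptors at the endosome, gave 4615, 3712 and 4000 against 4228, 4758 and 4200 (log2 -0.10), higher in clone 1 and lower in clones 2 and 3. USP30 of the mitochondrial outer membrane differed by 0.13, USP33 by 0.07 and its relative USP20 by 0.18.

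The signalling group had 6 tested genes with a median of -0.03, and all 6 intervals lay within 1.5-fold. USP9X, an X-linked enzyme with substrates that include SMAD4 and MCL1, was among the 3 brightest at 15527, 17415 and 18666 under TET siRNA against 16240, 18776 and 17999 (log2 -0.04, 95% interval -0.25 to 0.17). USP34, which acts on axin in Wnt signalling, had 3906, 4257 and 4403 against 4015, 4541 and 4218 at its brightest probe set (log2 -0.02). A dimmer probe set gave 429, 398 and 418 against 332, 268 and 300, with groups that did not overlap and a log2 difference of 0.47 (limma adjusted p 0.676 without and 0.215 with the replicate block). The remaining 3 tested USP34 probe sets had 0.26, 0.18 and -0.11. USP4, USP24, USP25 and USP31 differed by 0.12, 0.17, -0.12 and -0.07.

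USP36, a nucleolar enzyme that stabilises MYC, gave 1685, 1767 and 1633 against 1777, 1637 and 1906 at its brightest probe set (log2 -0.06). A dimmer one gave 540, 677 and 626 against 753, 708 and 967 (log2 -0.39, limma adjusted p 0.742 without and 0.223 with the replicate block), and the other 2 had 0.04 and -0.11. USP42, which acts on p53, differed by 0.02 and the splicing factor USP39, whose protease site is inactive, by 0.08.

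Among the less characterised members, USP35 had the lowest value of the 40 genes. Its dim single probe set gave 155, 204 and 171 under TET siRNA and 251, 222 and 253 in the control. The groups did not overlap and 3 of 3 clones were lower, with a log2 difference of -0.46 (SE 0.21, limma adjusted p 0.773 without and 0.397 with the replicate block). The 95% interval was -0.94 to 0.02. USP38, USP40, USP43, USP48 and USP54 differed by 0.16, 0.09, -0.06, 0.0090 and 0.0075.

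The clones were compared within the family as well. The difference had the same sign in all 3 clones for 11 of the 40 genes (27.5%, against 37.9% of all genes), 8 of them higher and 3 lower. The groups did not overlap for 6 (USP37, USP11, USP19, USP33 and USP4 higher, USP35 lower), or 15% against 13.2%. Medians over the 40 genes were 0.04, 0.01 and 0.06 in clones 1, 2 and 3. Without any TET siRNA, USP28 varied most between the clones at the brightest probe sets: its control signals were 1721, 2280 and 1106, a range of 2.06-fold. The next were USP51 at 1.83-fold and USP30 at 1.53-fold. The other tested USP28 probe sets gave control signals of 1208, 1587 and 1542, and of 737, 949 and 1157. Clone 3 was thus the lowest only at the brightest USP28 probe set.

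Genes of the other deubiquitinase families and ubiquitin genes gave few calls too. The former were listed by family, whether or not the member itself removes ubiquitin. Of 38 tested genes from the other deubiquitinase families, 21 were positive and 17 negative with a median of 0.02. Without the clone 0 passed, where 0.0162% of all genes did. With the replicate block 1 of the 38 passed, as lower, where 1.32% of all genes passed. That gene was CYLD, which removes linear and K63-linked chains in NF-kB signalling. It shares the USP fold, although its symbol does not place it among the members. At its brightest probe set the signal was 512, 596 and 585 under TET siRNA and 1061, 878 and 856 in the control. The groups did not overlap, with means of 564 ± 45.8 and 932 ± 113 (SD, n = 3 each) and a log2 difference of -0.72 (SE 0.14, limma adjusted p 0.261 without and 0.0342 with the replicate block). The next 3 probe sets of CYLD had -0.41, -0.55 and -0.77, each without overlap, and the dimmest -0.03.

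The CYLD call with the block was kept without clone 2 (limma adjusted p = 0.0117) and lost without clone 1 (0.180), without clone 3 (0.104), without the trend and robust steps (0.320) and with no filter on dim probe sets (0.150). At an unadjusted p under 0.05 without the clone, the list had 5 lower and 0 higher genes, or 13.2% against 6.96% of all genes, of which 442 were higher and 415 lower. Beside CYLD these were UCHL3, UCHL5, OTUD1 and ZUP1 at -0.21, -0.27, -0.29 and -0.29, named after their values were seen. With the replicate block the list had 7 lower and 2 higher genes at that level, or 23.7% against 16.1% of all genes. The 2 higher genes were USPL1 at 0.33 and ALG13 at 0.24, also named after their values were seen.

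Of 16 tested cofactors and adaptors of USP enzymes, 8 were positive and 8 negative, and 0 passed in limma in either fit. At an unadjusted p under 0.05 the fit with no clone term had 0, against 6.96% of all genes. The replicate block gave 1 at that level (6.25%, against 16.1% of all genes). It was ATXN7, higher by 0.22 on the log2 scale (unadjusted limma p 0.033), named after its value was seen. The 2 of smallest p in the fit with no clone term were both lower. They were STAM2, a partner of USP8 on endosomes, at -0.22, and ENY2, a subunit of the SAGA module of USP22, at -0.11. Among ubiquitin genes and activating enzymes 3 were tested, the ubiquitin gene UBB at -0.04 and the E1 enzymes UBA1 and UBA6 at 0.08 each, and all 3 intervals lay within 1.5-fold.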

How the data were processed

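The 6 arrays were one-colour Affymetrix arrays. The deposited values are MAS5 signals, intensities on a linear scale with 1 column per array, and the tool name, without a version, comes from the submitters' processing notes. The authors' values had a mean of 1000 on every array after trimming 2% at each end, so no scaling was added. Of 54675 probe sets 62 were controls, and 41091 of the rest had a single gene symbol in the platform annotation.

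After a log2 transform, tests covered the brighter 50% by mean over all arrays (geometric mean of at least 117): 27306 probe sets, 12318 genes. TET siRNA was compared with control siRNA in limma 3.58.1 (R 4.3.3) with trended, robust empirical Bayes, two-sided, with Benjamini-Hochberg adjustment over all tested probe sets and a threshold of 0.05. The fit had no clone term, and the clone as a replicate block was an alternative. Intervals are 95% and unadjusted. Signals of different probe sets are not comparable as levels. The number of arrays limits the precision.

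Same-numbered arrays come from the same clone, per the labels, which pairs the groups; their deviations from the group means correlated at 0.493, 0.234 and 0.236 in clones 1, 2 and 3. The members, role groups and lists were chosen with earlier results of these data known. Values on each array were given for USP genes past the threshold in either fit, the 5 of smallest p in each direction, the 3 brightest and those whose tested probe sets differ by over 0.4. In each other list, genes that passed were named and, where none did, the 2 with the lowest p. Alternatives covered the filter, a pseudocount of 36.1, quantile normalization, plain empirical Bayes, arrays and clones left out, and other ways to choose a gene's probe set. The fits were tested on simulated data. Plots were drawn with matplotlib 3.10.9.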

Additional observations from a re-analysis of the deposited data

How the results depend on the processing

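The count of USP genes past an adjusted p of 0.05 in limma was 0 in the fit without the clone and in each alternative to it without a block. It was 1 with the replicate block and 1 with the replicate block and quantile normalization, both times USP37, and 0 with the block and no filter on dim probe sets or plain empirical Bayes. With arrays or clones left out it ranged from 0 to 4. The 4, with the block and without clone 2, were USP28, USP37, USP38 and USP45, where 684 of all 27306 probe sets passed, in place of 282. The count of USP probe sets was 0, 2 with the replicate block, 2 with the block and quantile normalization, and 0 to 5 with arrays or clones left out. The median over USP genes stayed between -0.0056 and 0.055 in all alternatives.

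Signs in the alternatives were followed only for the USP genes whose values on each array are given above. Among these, signs changed only for genes with small differences or 1 deviating array, none of them past the threshold at its brightest probe set. With _s_at and _x_at probe sets left out USP34 was at 0.47 and USP9X at 0.018, and with the mean of all tested probe sets USP34 was at 0.15. With arrays or clones left out, the log2 difference ranged from -0.050 to 0.075 for USP1, -0.018 to 0.085 for USP14, -0.066 to 0.026 for USP34, -0.15 to 0.017 for USP36, -1.04 to 0.61 for USP51, -0.066 to 0.051 for USP53, -0.21 to 0.028 for USP8 and -0.10 to 0.032 for USP9X. The replicate block leaves these values as they are, so the turned signs with it were those without clone 1 (USP51 0.61), without clone 2 (USP1 -0.050, USP14 -0.016, USP34 0.011, USP53 0.051, USP8 0.028) and without clone 3 (USP14 -0.018, USP36 0.017). The 95% intervals of USP51, USP20 and USP2 were the widest of the 40 genes, at geometric mean signals of 148, 289 and 158. The part of dim signal in this was not tested.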
